A study of Homo sapiens with 2 samples.

Results

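The collagen genes were examined on 2 arrays of U87 cells, an established human glioblastoma line, one from cells given 20 µM LXR623, a synthetic liver X receptor (LXR) agonist, and one from cells given 0.1% DMSO. A gene was taken as a member when its symbol read COL, a number, A and a number, with nothing after it, which gave 43 of the 22458 named genes on the array. The members were sorted into 11 fibrillar chains, 6 chains of the type IV collagens of basement membranes, 10 chains of the FACIT class (fibril-associated collagens with interrupted triple helices) and 16 chains of other classes. COL17A1 had a place in the class list but no row under that symbol and is not analysed here.

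Collagens are secreted or membrane-bound proteins built of 3 chains wound into a triple helix, in which glycine sits at regular intervals and many prolines are hydroxylated. Fibrillar chains assemble into the cables of connective tissue, type IV chains form the sheet-like network under epithelia and around vessels, and FACIT chains coat the surface of fibrils. In the brain, collagen is mostly found in vessel walls and the meninges, and mesenchymal glioma cells grown in culture are known to make fibrillar and type VI collagen.

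RNA was collected after 24 h in medium with 1.5% serum, from U87 cells given 20 µM LXR623 and from U87 cells given the DMSO solvent, and each RNA was hybridised to 1 array (n = 1 per group). Nothing in the labels says whether the LXR623 cells also received DMSO. Values are log2 expression made by RMA, a method that corrects background and gives both arrays the same distribution of intensities. With a single array on each side, nothing that follows carries a test or an error, and every difference describes these 2 arrays alone.

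The labels disagree on the cells, since the growth text names HCT116, a colon carcinoma line, and the title, source, cell line and treatment fields name U87. Of the mesenchymal markers, 8 of 9 measured genes lay above the level filter explained below, as did 75.3% of all named genes. These 8 also lay above the array median. Vimentin (VIM) stood at 12.46 on the LXR623 array and 12.09 on the DMSO array. Of the 8, 5 were lower with LXR623, CHI3L1 most (-0.60). The summed log2 values of all 9 were 85.8 with LXR623 and 87.1 with DMSO. Of the 12 colon epithelial markers, 10 lay above the filter and 3 above the array median, EPCAM stood at 4.50 with LXR623 and 5.07 with DMSO, and the summed values were 52.3 with LXR623 and 51.6 with DMSO. Of the astrocyte and progenitor markers, 7 of 10 lay above the filter and 2 above the array median. GFAP stood at 4.68 with LXR623 and 4.76 with DMSO. SLC1A3, the glutamate carrier of astrocytes, had the widest difference of the list (-0.89). The sums were 42.0 with LXR623 and 42.8 with DMSO. ABCA1, the cholesterol pump induced by LXR, stood at 10.09 with LXR623 and 8.30 with DMSO. All 6 genes of an LXR response list were higher on the LXR623 array, against 48.8% of all named genes above the filter. Of these 6, 4 were at least 1.5-fold higher, against 2.38% of all named genes above the filter.

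A gene was kept when its mean over both arrays reached log2 3.39, the 25th percentile of all probe sets, and 16902 named genes were kept. This filter stands in for a detection call, which was not analysed here. It kept 36 of the 43 collagen genes (83.7%), against 75.3% of all named genes. All 11 fibrillar members passed, as did 4 of the 6 type IV, 8 of the 10 FACIT and 13 of the 16 other members. Mean levels at or above the median of the array were found for 7 fibrillar members, 1 type IV member, 4 FACIT members and 8 others. Probe sets differ in how strongly they bind, so a brighter signal does not mean more transcript. The counts of members that passed rest on the same signal and share this limit. Where genes are grouped by level below, it is to set collagen genes beside other probe sets of like signal.

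**Figure D1:**
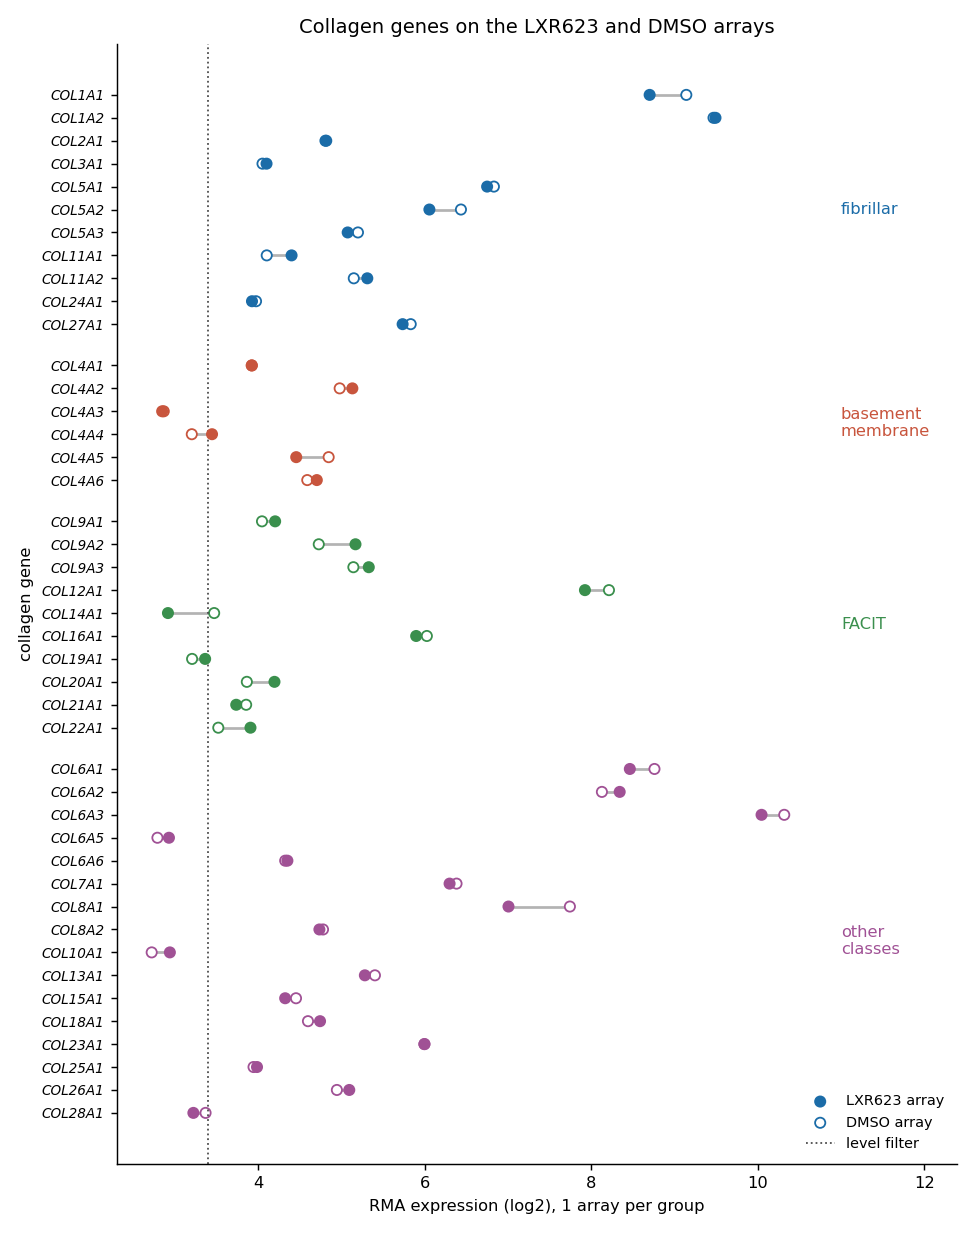
RMA expression (log2) of the 43 collagen genes, by class, on the LXR623 array (filled circles) and the DMSO array (open circles), 1 array per group. The dotted line is the level filter at log2 3.39; 7 genes have a mean below it, and COL8A1 shows the widest gap among the genes above it.

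The collagen chains as a whole hardly differed between the arrays. Among the 36 kept members, 16 were higher with LXR623, 18 were lower and 2 had the same value, with a median difference of -0.005 (log2 LXR623 minus log2 DMSO). The median over all 16902 kept genes was 0. None of the 36 was at least 1.5-fold higher, where 2.38% of all kept genes were. A single member, COL8A1, was at least 1.5-fold lower, where 2.01% of all kept genes were. Differences of 0.25 or more in either direction were seen for 11 members, a share near the 31.2% of all kept genes that differed as much. The median size of a difference, regardless of sign, was 0.14 for the members and 0.16 for all kept genes.

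**Figure D2:**
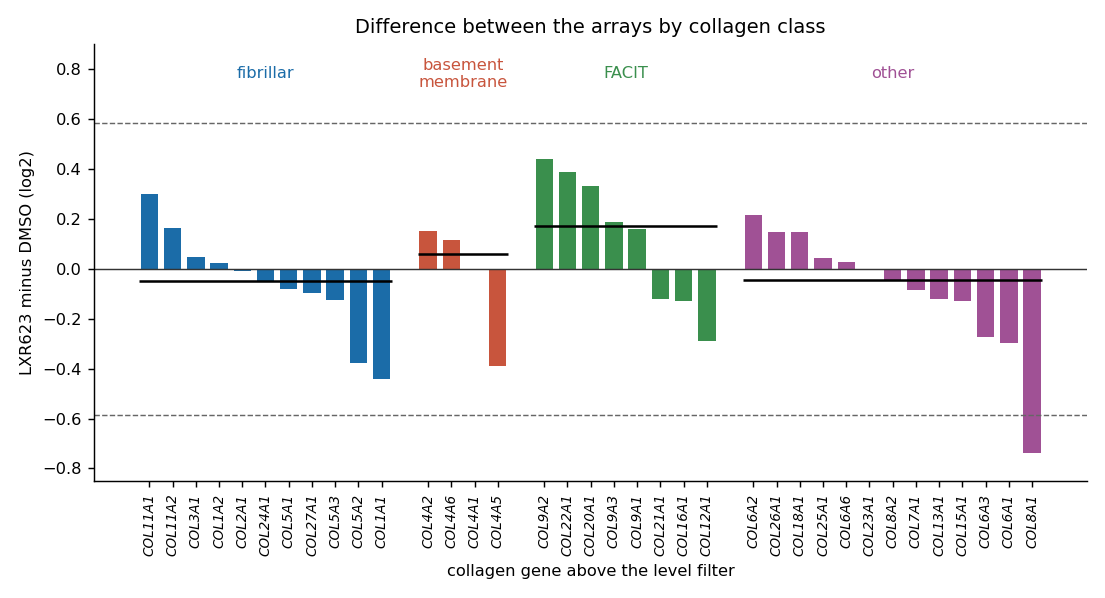
Difference between the arrays (log2 LXR623 minus log2 DMSO) for the 36 collagen genes above the level filter, sorted within class. Horizontal black lines are class medians (-0.05 for fibrillar, 0.06 for basement membrane, 0.17 for FACIT and -0.04 for other classes), dashed lines mark 1.5-fold, and COL8A1 is the one bar beyond them; COL4A1 and COL23A1 have no bar because their values were the same on both arrays.

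Fibrillar chains lay slightly on the lower side, with 7 of 11 lower, 4 higher and a median of -0.05. COL1A1, which encodes the alpha 1 chain of type I collagen, stood at 8.70 on the LXR623 array and 9.14 on the DMSO array, a difference of -0.44. Of the genes in the brightest level quintile (5 equal groups of kept genes by mean level), to which it belongs, 2.78% had a difference as low. COL1A2, the partner chain of the same trimer, stood at 9.49 with LXR623 and 9.47 with DMSO. The 2 chains of type I collagen therefore were 0.46 apart in their differences, with COL1A1 lower and COL1A2 at nearly the same value. COL3A1, the chain of type III collagen, found in skin and vessels, stood at 4.10 with LXR623 and 4.05 with DMSO. COL2A1, the cartilage collagen, stood at 4.80 with LXR623 and 4.81 with DMSO.

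Type V and XI chains, which sit in the core of fibrils and set their width, lay on opposite sides of 0. COL5A2 stood at 6.05 with LXR623 and 6.43 with DMSO, a difference of -0.38 (1.30-fold lower). COL5A1 stood at 6.75 with LXR623 and 6.83 with DMSO, and COL5A3 at 5.07 with LXR623 and 5.20 with DMSO. All 3 type V chains were thus on the lower side, by 0.08 to 0.38. COL11A1 stood at 4.40 with LXR623 and 4.10 with DMSO, a difference of 0.30, and COL11A2 at 5.31 with LXR623 and 5.15 with DMSO. Both type XI chains were higher, but all 4 of these values lay in the dimmest 2 quintiles of kept genes. The late fibrillar chains COL24A1 and COL27A1 differed by -0.05 and -0.10.

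The 4 kept type IV chains had a median of 0.06, with 2 higher, 1 lower and 1 identical, and none reached 1.5-fold. COL4A1, part of the trimer of most basement membranes, was listed at 3.92 on both arrays, one of 489 kept genes (2.89%) with exactly the same value. COL4A2, its partner, stood at 5.13 with LXR623 and 4.98 with DMSO, a difference of 0.15. COL4A5, the chain most often affected in Alport syndrome, stood at 4.45 with LXR623 and 4.84 with DMSO, a difference of -0.39 (1.31-fold lower). COL4A6 stood at 4.70 with LXR623 and 4.59 with DMSO, a difference of 0.11. Of the chains below the filter, COL4A3 was listed at 2.84 with LXR623 and 2.86 with DMSO, and COL4A4 at 3.44 with LXR623 and 3.20 with DMSO. The kept type IV members were all in the dimmest 2 quintiles of the array, where 37.2% and 35.6% of all genes in each quintile differed by 0.25 or more, against 22.5% in the brightest.

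Type IV genes are arranged in head-to-head pairs, and stretches of the DNA between the genes of each pair are shown. They were taken from RefSeq windows of GRCh38.p14, on the plus strand, 5′ to 3′, with capitals marking 2 motifs on either strand. The CCAAT box was searched as CCAAT, and the GC box was searched as GGGCGG. The pair COL4A1 and COL4A2 is separated by 126 bp at chr13:110307158-110307283, and COL4A4 and COL4A3 by 135 bp at chr2:227164489-227164623. The stretch between COL4A4 and COL4A3 came from a window of COL4A3. No window of COL4A4 held GGGCGG, so none covered this stretch. COL4A6 and COL4A5 lie 379 bp apart, of which the 121 bp covered by the windows of both genes are shown, at chrX:108439588-108439708.
COL4A1/COL4A2: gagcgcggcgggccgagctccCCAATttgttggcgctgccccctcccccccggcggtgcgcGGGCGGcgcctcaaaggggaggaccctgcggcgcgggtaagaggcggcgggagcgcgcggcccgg
COL4A4/COL4A3: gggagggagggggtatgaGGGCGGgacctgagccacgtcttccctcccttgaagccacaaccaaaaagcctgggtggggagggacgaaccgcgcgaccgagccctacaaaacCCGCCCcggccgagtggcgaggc
COL4A6/COL4A5: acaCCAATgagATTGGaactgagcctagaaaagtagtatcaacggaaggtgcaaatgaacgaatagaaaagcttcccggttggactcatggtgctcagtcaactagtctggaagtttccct

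The first stretch holds 1 CCAAT box and 1 GC box and is 80.2% G and C, and the second holds no CCAAT box and 2 GC boxes (68.1% G and C). The 121 bp of the third hold 2 CCAAT boxes and no GC box (44.6% G and C). The rest of its 379 bp was not counted, and GGGCGG was found in a RefSeq window of COL4A6. The third stretch therefore cannot be set beside the other full stretches for these motifs. The differences within the pairs were 0 for COL4A1 and 0.15 for COL4A2, 0.24 for COL4A4 and -0.02 for COL4A3, and 0.11 for COL4A6 and -0.39 for COL4A5. The widest gap, 0.50, was thus between COL4A6 and COL4A5, with COL4A6 on the higher side and COL4A5 on the lower. With 1 array per group, these gaps have no error to be set against.

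FACIT chains had the highest median of the classes, 0.17 over 8 kept members, of which 5 were higher, 3 lower and none past 1.5-fold. The 5 higher members all lay in the dimmest 2 quintiles, where 55.0% of all kept genes were higher. COL9A2, a chain of the type IX collagen of cartilage, stood at 5.17 with LXR623 and 4.72 with DMSO, a difference of 0.44 that was the highest of any kept member. COL9A3 stood at 5.33 with LXR623 and 5.14 with DMSO, and COL9A1 at 4.20 with LXR623 and 4.04 with DMSO. All 3 chains of type IX collagen were therefore on the higher side, by 0.16 to 0.44. COL22A1, a collagen of tissue junctions such as that of muscle and tendon, stood at 3.90 with LXR623 and 3.52 with DMSO, and COL20A1 at 4.19 with LXR623 and 3.86 with DMSO.

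The 3 remaining kept FACIT members lay on the lower side. COL12A1, which binds type I fibrils in tendon and stroma, stood at 7.92 with LXR623 and 8.21 with DMSO, a difference of -0.29 (1.22-fold lower). COL16A1 stood at 5.89 with LXR623 and 6.02 with DMSO, and COL21A1 at 3.73 with LXR623 and 3.85 with DMSO. At the stricter level filter, the 50th percentile of all probe sets, 4 FACIT members remained and their median was 0.03.

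Among the other classes, the median over 13 kept members was -0.04, with 5 higher, 7 lower and 1 identical. COL8A1, a short-chain collagen that forms hexagonal networks in vessel walls and under the corneal endothelium, was the only collagen gene past 1.5-fold. It stood at 7.004 on the LXR623 array and 7.742 on the DMSO array, a difference of -0.74 (1.67-fold lower). Its difference was the 131st lowest of the 16902 kept genes, and 0.71% of the genes in its level quintile were as low. COL8A1 (Entrez gene 1295) spans chr3:99638594-99799217 in GRCh38.p14. The next lowest member after it was COL1A1 at -0.44, inside the 1.5-fold bounds. COL8A2, the second type VIII chain, stood at 4.73 with LXR623 and 4.78 with DMSO, a difference of -0.04.

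Type VI collagen, which forms beaded microfibrils near the cell surface and is abundant in mesenchymal cells, was split. COL6A1 stood at 8.46 with LXR623 and 8.76 with DMSO, a difference of -0.30 (1.23-fold lower). COL6A3 stood at 10.05 with LXR623 and 10.32 with DMSO, a difference of -0.27 (1.21-fold lower). COL6A2 stood at 8.34 with LXR623 and 8.13 with DMSO, a difference of 0.21. The 3 chains that together build the main type VI trimer thus spread over 0.51, with COL6A2 the one on the higher side. COL6A1 and COL6A2 lie next to each other on chromosome 21, 93063 bp apart, and still had opposite signs. In the brightest quintile of the array, 7.87% of genes were as low as COL6A1, 9.55% as low as COL6A3 and 13.9% as high as COL6A2. COL6A6, a relative of the alpha 3 chain, stood at 4.35 with LXR623 and 4.32 with DMSO.

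The remaining kept members of these classes stayed within 0.15 in either direction. COL7A1, the anchoring fibril collagen of skin, stood at 6.30 with LXR623 and 6.38 with DMSO. COL18A1, whose C-terminal fragment is endostatin, stood at 4.74 with LXR623 and 4.59 with DMSO, and COL15A1, its relative, at 4.32 with LXR623 and 4.45 with DMSO. Of the membrane-spanning collagens, COL13A1 stood at 5.28 with LXR623 and 5.40 with DMSO, COL25A1 at 3.98 with LXR623 and 3.94 with DMSO, and COL23A1 at 5.99 on both arrays. COL26A1 stood at 5.09 with LXR623 and 4.94 with DMSO.

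Collagen genes with a brighter signal lay more often on the lower side, as the plot of differences against level shows. The 16902 kept genes were divided by mean level into the quintiles used above. In the brightest 2 quintiles there were 8 collagen genes, namely COL1A1, COL1A2, COL5A1, COL6A1, COL6A2, COL6A3, COL8A1 and COL12A1. Of these, 6 were lower and 2 higher, with a median of -0.28, while 55.7% of all genes at these levels were lower, with a median of -0.03. In the middle quintile, 4 of 5 members were lower and 1 identical (median -0.10, against -0.01 for all genes). In the dimmest 2 quintiles, 8 of 23 were lower, 14 higher and 1 identical (median 0.05, the same as for all genes at that level). After a smooth curve of the difference on level was removed, the median was -0.26 in the bright group and -0.01 in the dim one. This division was made after the values were seen, the bright group holds 8 genes, and no test of it exists.

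**Figure D3:**
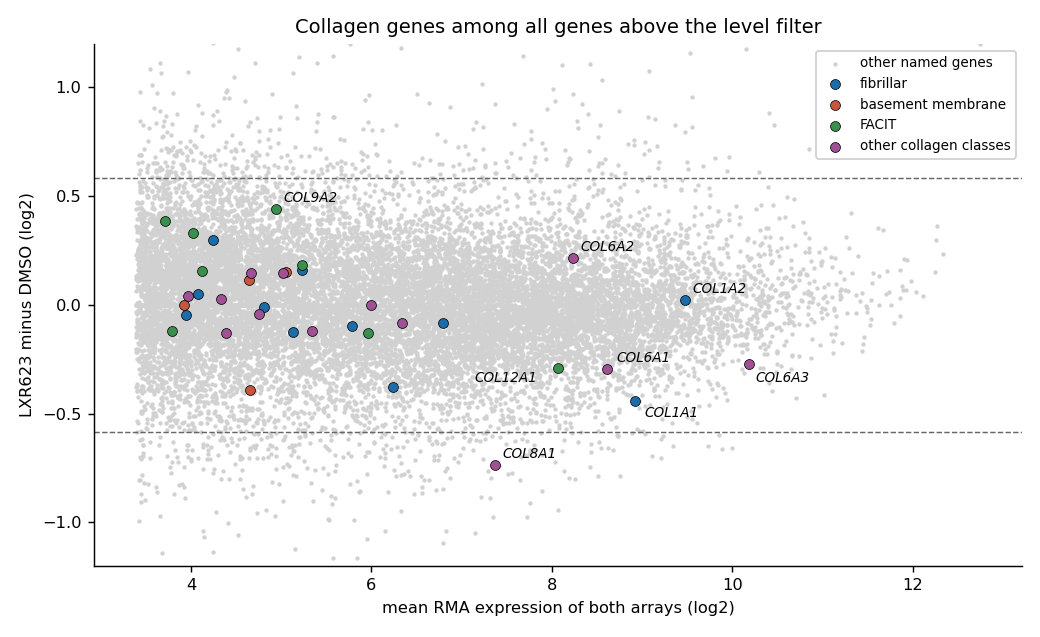
Difference between the arrays (log2 LXR623 minus log2 DMSO) against the mean of both arrays (log2) for all genes above the level filter (grey) and the 36 collagen genes (coloured by class). Dashed lines mark 1.5-fold and 48 genes lie beyond the vertical axis; of the 8 collagen genes above a level of 6.68, 6 lie below 0.

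The class medians cannot be told apart from this trend, because the classes fall differently over the quintiles of signal. Of the kept members, 6 of 8 FACIT chains and all 4 type IV chains were in the dimmest 2 quintiles, against 6 of 11 fibrillar chains and 7 of 13 others. COL12A1 was the only FACIT chain among the brightest 2 quintiles. With the curve of the difference on level removed, the class medians were 0.13 for FACIT, 0.01 for type IV, -0.05 for fibrillar and -0.07 for other classes. That curve is drawn over all genes and does not take out the trend among the collagen genes.

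Partner chains were compared by the spread of their differences. It was 0.14 for type XI, 0.28 for type IX, 0.30 for type V, 0.46 for type I, 0.51 for type VI and 0.69 for type VIII. Types V, VI and IX have more chains than the others, so these spreads cannot be ranked together. No spread was computed for unrelated genes. Within type IV it was 0.15 for COL4A1 and COL4A2 and 0.50 for COL4A5 and COL4A6. For COL4A3 and COL4A4, both below the level filter, it was 0.26. COL3A1 and COL5A2 are neighbours on chromosome 2, 19151 bp apart, and differed by 0.05 and -0.38. COL19A1 and COL9A1, separated by 2592 bp on chromosome 6, both differed by 0.16, but COL19A1 was below the level filter.

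Start-site windows of 300 bases (250 before and 50 after the start) were found in the RefSeq table for 31 of the 43 members, 43 windows in all. Their median content of G and C was 64.0%, against 58.7% over all 35116 windows. No window was matched for COL1A1, COL1A2, COL2A1, COL3A1, COL5A2, COL6A1, COL6A5, COL8A1, COL9A3, COL14A1, COL20A1 and COL22A1. CCAAT was found on either strand in 13 of the 43 windows (30.2%, against 34.6% of all windows), GGGCGG in 24 (55.8%, against 45.0%) and TATAAA in 7 (16.3%, against 11.5%). The repeat of AGGTCA with 4 bases between, to which LXR binds, was in 0 of the 43 windows and in 0.0199% of all windows. Only these exact letters were searched, and so rare a repeat could hardly be met in 43 windows. AGGTCA alone, which that repeat contains, was in 1 of the 43, that of COL7A1, and in 13.8% of all windows. These letters describe short windows and say nothing on binding.

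The 7 members below the level filter are listed for completeness. COL14A1, a FACIT chain, had the widest gap of them, at 2.91 with LXR623 and 3.47 with DMSO. Its LXR623 value was below the level of the filter, and it did not reach 1.5-fold. COL4A3, COL4A4, COL6A5, COL10A1, COL19A1 and COL28A1 differed by -0.15 to 0.24.

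Genes that modify, fold and secrete collagen had more members on the higher side than on the lower. Over all kept genes, 48.8% were higher and 48.3% lower. In the list of prolyl and lysyl hydroxylation, 11 of 14 kept genes were higher and 3 lower, with a median of 0.14. P3H1 lay past the upper 1.5-fold bound, as did 2.38% of all kept genes, and P4HA3 past the lower one, as did 2.01%. Of the 14, 13 lay in the brightest 2 quintiles, where 11 were higher, against 43.6% of all kept genes there. P3H1, a prolyl 3-hydroxylase of the endoplasmic reticulum (ER), stood at 8.83 with LXR623 and 8.20 with DMSO, a difference of 0.64. P4HA2 and P4HA1, catalytic subunits of prolyl 4-hydroxylase, differed by 0.36 and 0.13, and their partner P4HB by 0.26. P4HA3 stood at 3.38 with LXR623 and 4.25 with DMSO, a difference of -0.87, but its LXR623 value was below the level of the filter. PLOD2, which hydroxylates lysines for cross-links, stood at 10.40 with LXR623 and 10.68 with DMSO, and P3H2 at 7.32 with LXR623 and 7.66 with DMSO.

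In the list of chaperones and secretion, 12 of 14 kept genes were higher and 2 lower, with a median of 0.25 and none past 1.5-fold. SEC13, a subunit of the COPII coat that carries cargo out of the ER, stood at 9.90 with LXR623 and 9.34 with DMSO, a difference of 0.55. FKBP14, an ER foldase, differed by 0.47, SEC24D by 0.37 and SERPINH1, the collagen chaperone HSP47, by 0.27. TRAM2, an ER protein linked to type I collagen synthesis, stood at 9.29 with LXR623 and 9.70 with DMSO, a difference of -0.42. All 14 genes lay in the brightest 2 quintiles, where 43.6% of all kept genes were higher. Of the 8 collagen chains at these levels, 2 were higher.

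**Figure D4:**
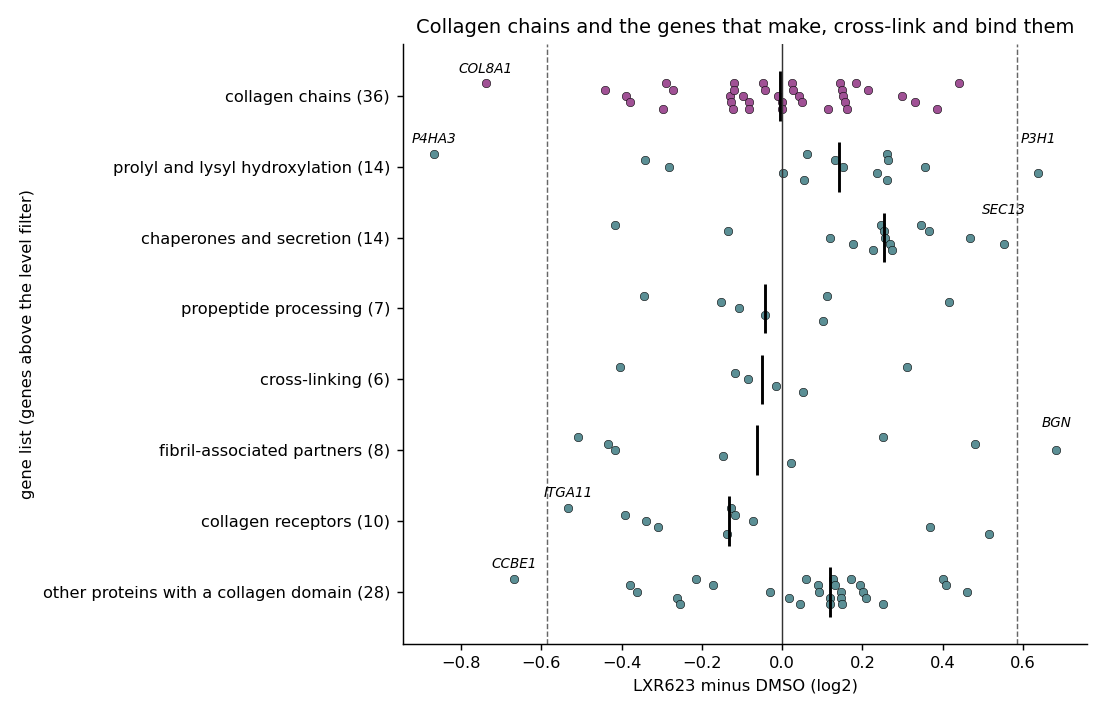
Difference between the arrays (log2 LXR623 minus log2 DMSO) for the collagen chains and 7 lists of genes that modify, fold, process, cross-link, surround or bind collagen, or share its domain; each point is 1 gene above the level filter and black bars are medians. Dashed lines mark 1.5-fold; the chaperone and secretion list has the highest median (0.25) and the receptor list the lowest (-0.13).

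Outside the cell the picture was mixed. For propeptide processing, 3 of 7 kept genes were higher and 4 lower (median -0.04), where 48.8% of all kept genes were higher and 48.3% lower. ADAMTS14, which trims the amino-terminal propeptide, differed by 0.41 and TLL1 by -0.34, both in the dimmest 2 quintiles. PCOLCE differed by -0.15, PCOLCE2 by 0.11 and BMP1, which trims the carboxy-terminal propeptide, by -0.11. For cross-linking, 2 of 6 were higher and 4 lower (median -0.05). In the brightest 2 quintiles, 4 of 5 were lower, against 55.7% of all kept genes there. LOX, the copper enzyme that oxidises lysines for cross-links, stood at 9.65 with LXR623 and 9.34 with DMSO, and its relative LOXL1 at 8.16 with LXR623 and 8.56 with DMSO. LOXL2, also known to act on type IV collagen, differed by -0.08, and LOXL3 by -0.12.

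Of 8 kept proteins that sit on or beside fibrils, 4 were higher and 4 lower, with a median of -0.06. At the stricter level filter, 5 of them remained and their median was -0.42. In the dimmest 2 quintiles, 3 of 4 were higher, against 55.0% of all kept genes there. In the brightest 2 quintiles, 2 of 3 were lower, against 55.7% of all kept genes there. BGN, the proteoglycan biglycan, stood at 5.56 with LXR623 and 4.87 with DMSO, a difference of 0.68. It lay in the dimmest 2 quintiles and was the one past 1.5-fold, where 2.38% of all kept genes were at least 1.5-fold higher. LUM, the proteoglycan lumican, stood at 6.13 with LXR623 and 6.64 with DMSO, a difference of -0.51. COMP, a cartilage matrix protein whose signal also lay in the dimmest 2 quintiles, differed by 0.48 and MATN2 by -0.43. Of the whole list, 6 of 14 genes were below the filter, among them DCN (decorin) and POSTN (periostin).

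Among collagen receptors, 8 of 10 were lower and 2 higher, with a median of -0.13 and none past 1.5-fold, where 48.3% of all kept genes were lower. In the brightest 2 quintiles, 3 of 4 receptors were lower, against 55.7% of all kept genes there. ITGA11, the integrin subunit that binds fibrillar collagen, stood at 6.20 with LXR623 and 6.74 with DMSO, a difference of -0.53. ITGA2, ITGA1 and ITGA10, the other collagen-binding alpha subunits, differed by -0.39, -0.34 and -0.31. All 4 alpha subunits of this kind were therefore on the lower side. By signal, ITGA2 lay in the brightest quintile, ITGA11 and ITGA1 in the middle one and ITGA10 in the dimmest 2. DDR2, a receptor tyrosine kinase for fibrillar collagen, stood at 9.03 with LXR623 and 8.66 with DMSO, a difference of 0.37, while DDR1 differed by -0.14. GP6, the platelet collagen receptor, stood at 4.02 with LXR623 and 3.51 with DMSO and lay in the dimmest quintile.

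Of 28 kept genes that carry a collagen-like domain but are not collagens, 20 were higher and 8 lower, with a median of 0.12, where 48.8% of all kept genes were higher. Most of them, 23, lay in the dimmest 2 quintiles, where 18 were higher, against 55.0% of all kept genes there. CCBE1, a secreted factor of lymphatic growth, stood at 5.19 with LXR623 and 5.86 with DMSO, a difference of -0.67. It was the one past 1.5-fold, where 2.01% of all kept genes were at least 1.5-fold lower. C1QL4 differed by 0.46, the scavenger receptor MARCO by 0.41 and the lectin FCN1 by 0.40.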

How the data were processed

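Expression was measured in RNA of U87 cells on 1 array per group, after biotin labelling with an Affymetrix kit. Per the labels and the submitters' processing notes, the authors made the deposited log2 values by RMA with affy 1.36.1 in R 2.15.1; because RMA gives both arrays one distribution, a change common to most genes would not show. Neither array model nor genome build is given in the sources used here. Of 23786 probe sets, 22458 had 1 symbol from the platform annotation, none several, 1328 none, and no symbol had more than 1 set. Array medians were 4.92 (LXR623) and 4.88 (DMSO). Precision is limited by the number of arrays.

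Differences were computed as log2 LXR623 minus log2 DMSO; with 1 array per group no test was run. Collagen genes were named when past 1.5-fold, among the 5 largest differences of a class, or chains of types I, III, IV, V, VI, XII and XVIII, and the remaining ones were added to account for all; in other lists the 4 largest differences and a fixed set were named, and further genes of those lists were chosen after their values were seen. Members, classes and lists were chosen with earlier results of these data known. Counting and scaling were checked on simulated data. Alternatives were centring, lowess on level (span 0.3), other filters, the mean, dropping the most extreme member, a 2-fold threshold and, added after the values were seen, dropping sets of identical value. Python 3.11.15, numpy 2.4.6, pandas 2.3.3, statsmodels 0.14.6 and matplotlib 3.10.9 were used.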

Additional observations from a re-analysis of the deposited data

How the results depend on the processing

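Of 95 values of lists and counts under the alternatives, 6 moved: a median by 0.1 or more, or by 0.05 or more with a change of sign, or a count by over 1.5 times. The mean in place of the median gave -0.0307 for type IV chains, where COL4A5 outweighs small positive values. The filter at the 50th percentile gave 0.0283 for FACIT chains and -0.42 for fibril-associated genes, and no filter gave 0.0296 for propeptide processing and -0.17 for fibril-associated genes, the genes entering each list being different. At 2-fold, 0 collagen genes were lower, since COL8A1 was 1.67-fold lower. COL8A1 stayed past 1.5-fold under centring (-0.78) and lowess (-0.70). Centring lowers every difference by 0.040 and turned the sign of 2 kept members, and lowess that of 3; either way 22 were below 0 and 14 above, where 56.5% and 50.5% of all kept genes were below 0. No paired analysis was possible because there was 1 array on each side, and no replicate could be left out. Detection above background is not analysed here.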

Other observations

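Rows named after collagen genes but outside the member rule were antisense genes and pseudogenes, and were read only after the members. COL4A2-AS2, an antisense gene at the COL4A2 locus, stood at 4.65 on the LXR623 array and 5.19 on the DMSO array, a difference of -0.54, whereas COL4A2 itself differed by 0.15. COL18A1-AS1 was listed at 4.80 on both arrays. COL18A1-AS2, COL4A2-AS1, COL6A4P1 and COL6A4P2 lay below the level filter, with differences of -0.23 to 0.07.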
